A study of Mus musculus with 15 samples.

Results

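The integrated stress response and the mitokines it releases were followed through 10 genes in mouse heart: Atf4, Atf5, Atf3, Ddit3, Trib3, Asns, Chac1, Mthfd2, Fgf21 and Gdf15. The genes were taken by name, and all 10 were on the array and passed the filter on dim probes, among 14918 named genes and 25787 features (a gene's brightest probe, or a probe without a name) that were tested. The RNA came from the apex of the hearts of male C57BL6 mice aged 10 weeks. They had undergone transverse aortic constriction (TAC), which narrows the aorta so that the left ventricle pumps against raised pressure, or a sham operation 3 days earlier. The Cre groups carried a cre transgene under the myosin heavy chain (MHC) promoter, active in cardiomyocytes, and in the KO groups (genotype MHC-cre-Klf4) the same transgene removed Klf4, which encodes a Krüppel-like transcription factor. All groups therefore carried cre, and cells other than cardiomyocytes would keep Klf4 in the KO. The sham operation was represented by 4 Cre and 4 KO arrays, and TAC by 3 Cre and 4 KO arrays. Nothing in the labels says that an array held more than 1 heart.

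Values are log2 of the signal over the array's own 75th percentile, so 0 is the level of that percentile, and they were compared within a gene only. Where groups are said not to overlap, this describes the arrays, and the share of all features that did so is not given here. On 14 arrays 65.6% to 75.4% of probes were well above background, and each correlated with the others at a median of 0.961 to 0.982. KO TAC replicate 4 stood apart, with 95.9% of probes well above background and a median correlation of 0.807. Results are given without it where that changed a call of the 10 genes or a list's count in the main comparison. The genotype labels were not settled. The scanner values of 14 of the 15 arrays matched, at a rank correlation of 0.999992 or above, a column of the deposited value table that bears the same operation and the other genotype. Klf4 itself did not separate the genotypes, at 3.98 ± 0.25 (SD, n = 4) in Cre sham, 4.14 ± 0.13 (n = 3) in Cre TAC, 3.94 ± 0.51 (n = 4) in KO sham and 4.15 ± 0.44 (n = 4) in KO TAC. Whether its probe lies within the deleted part was not known here. Cre and KO below are the labels of the scanner files. For the 14 matched arrays, directions between genotypes turn round under the labels of the value table. The mean of both genotypes' TAC responses is the same if the genotype labels are exchanged as a whole, and it is the main comparison here. KO TAC replicate 4 matched no column, so its genotype under the labels of the value table is not known. The description field named the other operation in 7 of the 15 samples. The operation was taken from title and source name, and under the description field 0 of the 10 genes and 0 of all features passed the test by limma, with 0 of the 10 and 393 of all at an unadjusted p under 0.05. Under title and source name the load marker Nppb lay at 4.44 to 6.04 in Cre sham and 7.31 to 7.64 in Cre TAC, and at 6.11 to 7.14 in KO sham and 6.98 to 8.42 in KO TAC, where the groups overlapped.

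The integrated stress response is a shared answer to several kinds of stress. Kinases that sense misfolded protein, amino acid shortage, heme shortage, viral RNA or mitochondrial damage phosphorylate the translation factor eIF2α, which slows protein synthesis as a whole while favouring translation of ATF4. ATF4 and its relatives ATF5 and CHOP (the product of Ddit3) then raise genes of amino acid import, amino acid synthesis and one-carbon metabolism, and under lasting stress genes of cell death. In the heart and in skeletal muscle, mitochondrial defects raise the secreted factors FGF21 and GDF15, which act on distant organs and are called mitokines. Since ATF4 is governed largely at translation, its mRNA is not a measure of its protein.

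ATF4 with a C/EBP partner binds composite sites whose core is TGATGNAA, and cyclic AMP response elements of the form TGACGTNA are bound by CREB and ATF proteins. Both were searched on both strands in the 250 bases before each start in RefSeq's promoter table (GRCm38.p6). TGATGNAA was in 1134 of 32851 windows (3.45%) and TGACGTNA in 828 (2.52%). Of the 10 genes, Atf3, Asns, Chac1 and Fgf21 held the first in a window, and Atf3 also held the second, at a place that did not overlap. They are shown because the 2 of these genes that passed the test after TAC, Atf3 and Chac1, moved in opposite directions, while Asns and Fgf21 did not pass it, as described below. Capitals mark the match, read 5′ to 3′ along the gene's strand. The Atf3 site at 110 to 103 bases before the start lies in chr1:191183401-191183478 (minus strand), and the Atf3 cyclic AMP type site at 10 to 3 bases before it in chr1:191183334-191183378 (minus strand). The Asns site at 23 to 16 bases is in chr6:7693210-7693267 (minus strand). The Chac1 site at 193 to 186 bases is in chr2:119351014-119351091 (plus strand), and the Fgf21 site at 139 to 132 bases in chr7:45615587-45615664 (minus strand). The windows of Atf4, Atf5, Ddit3, Trib3, Mthfd2 and Gdf15 held neither string of letters.
Atf3 composite: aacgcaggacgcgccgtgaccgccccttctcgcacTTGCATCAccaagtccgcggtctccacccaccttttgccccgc
Atf3 cyclic AMP type: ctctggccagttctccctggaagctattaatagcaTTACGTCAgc
Asns composite: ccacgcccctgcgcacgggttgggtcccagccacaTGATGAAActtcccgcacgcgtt
Chac1 composite: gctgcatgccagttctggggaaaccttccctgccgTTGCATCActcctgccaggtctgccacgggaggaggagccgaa
Fgf21 composite: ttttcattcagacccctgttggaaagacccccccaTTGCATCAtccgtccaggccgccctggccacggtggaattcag

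After TAC the 10 genes split. Gdf15, Atf3 and Atf4 rose, Chac1 fell strongly, Atf5, Ddit3 and Trib3 fell slightly, and Asns, Mthfd2 and Fgf21 did not pass the test. In the mean of both genotypes 7 of 10 were called (limma with Benjamini-Hochberg adjustment over all features, adjusted p under 0.05), 3 higher and 4 lower, against 27.0% of all features called, 13.3% higher and 13.7% lower. The median difference over the 10 genes was 0.54 (log2), or 0.41 with Fgf21 at the bound its signals in Cre sham allow, and that over all features 0.044. With arrays centred on their median in place of the 75th percentile, 3 of 10 were called (Atf3, Chac1 and Gdf15), against 12.4% of all features. Without KO TAC replicate 4 the same centring, which called 36.7% of all features, called Atf4 and Ddit3 as well, while Atf5 and Trib3 had adjusted p-values of 0.0646 and 0.0514. The calls of Gdf15, Atf3, Atf4 and Chac1 on the scale used here held whichever of the 15 arrays was left out. Those of Atf5, Ddit3 and Trib3 ended with 10, 12 and 10 of the 15 arrays left out 1 at a time, with adjusted p-values of up to 0.111, 0.0950 and 0.0797. In bulk tissue a lower level cannot be told apart from fewer cells that express the gene.

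**Figure D1:**
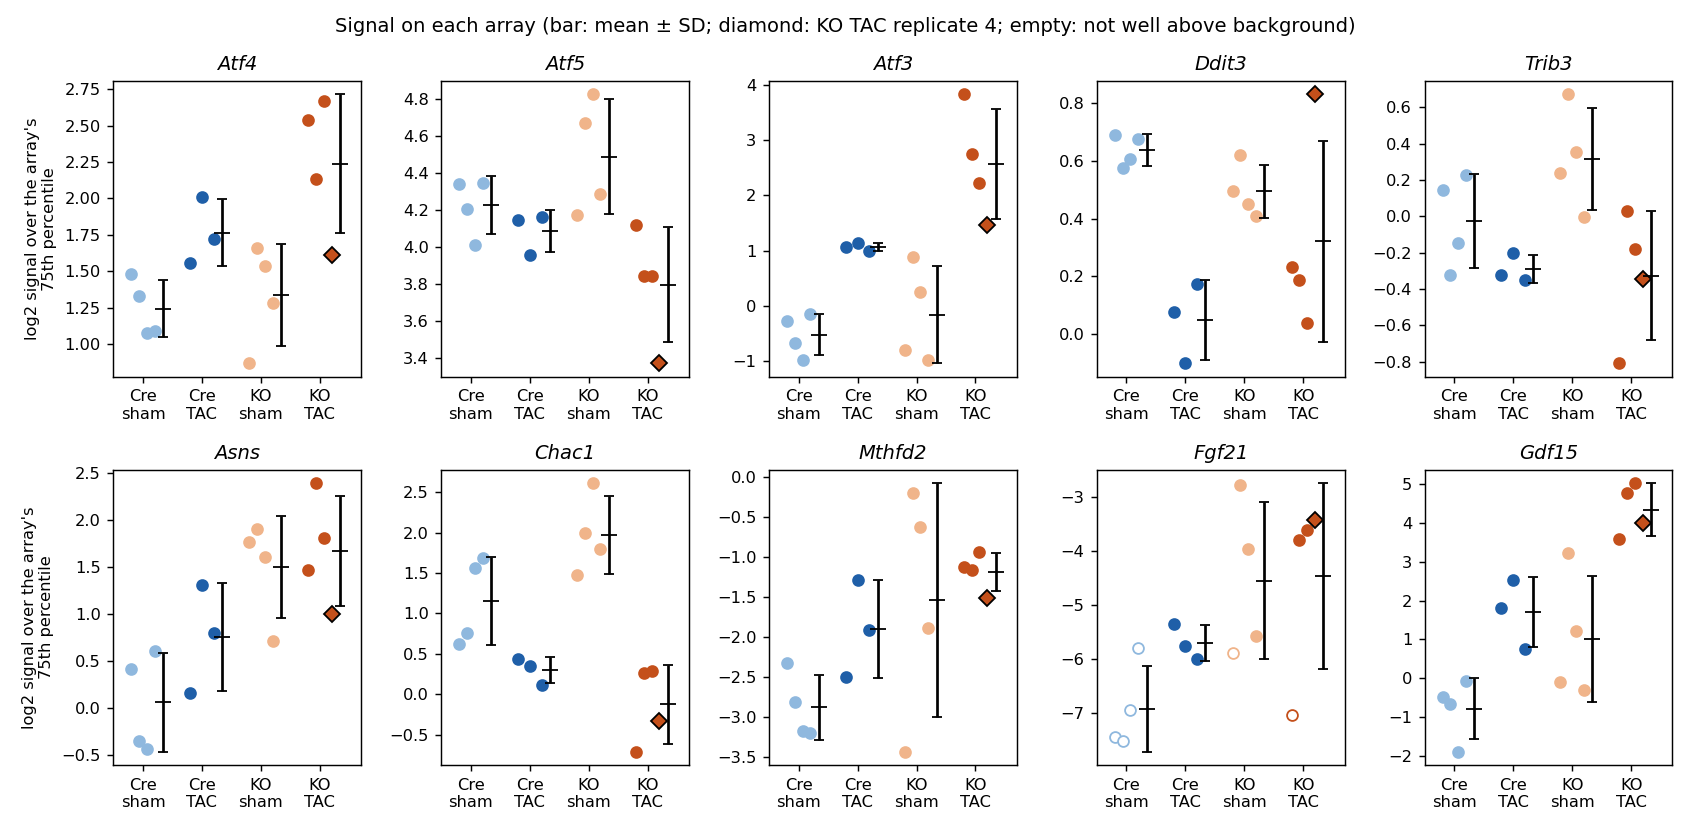
Signal of each gene on each of the 15 arrays by group (y axis, log2 over the array's 75th percentile, with its own scale in each panel), with mean ± SD as a bar, KO TAC replicate 4 as a diamond and signals not well above background as empty symbols. The TAC and sham arrays of Atf3 and of Chac1 do not overlap, and Fgf21 is the gene with signals near background.

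Atf4, the central transcription factor of the response, lay at 1.48, 1.33, 1.08 and 1.09 in Cre sham and 1.56, 2.01 and 1.72 in Cre TAC. The KO sham arrays gave 0.87, 1.66, 1.54 and 1.28 and the KO TAC arrays 2.54, 2.13, 2.67 and 1.61. All Cre TAC arrays were above all Cre sham arrays, while KO TAC replicate 4 fell within the range of KO sham. The mean difference was 0.71 ± 0.18 (SE), a 1.64-fold rise with an adjusted p of 0.0101. It was 0.52 in Cre (adjusted p = 0.329) and 0.90 in KO (adjusted p = 0.0170). TAC was above sham on each of the 3 slides with both Cre groups and each of the 4 with both KO groups. Where arrays were centred on their median with KO TAC replicate 4 kept, the mean difference was 0.51 with an adjusted p of 0.403. Without that array it was 0.83 with an adjusted p of 0.00137.

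Atf5, a relative of Atf4 that is tied to the mitochondrial branch of the response, was lower. Its values were 4.34, 4.20, 4.01 and 4.35 in Cre sham and 4.14, 3.96 and 4.16 in Cre TAC. In KO sham they were 4.17, 4.67, 4.82 and 4.28, and in KO TAC 4.12, 3.84, 3.84 and 3.37. The KO groups did not overlap and the Cre groups did. The mean difference was -0.42 ± 0.14 (SE, adjusted p = 0.0436), made up of -0.14 in Cre (adjusted p = 0.877) and -0.69 in KO (adjusted p = 0.0190). The difference between these responses was -0.55 (95% interval -1.16 to 0.055) and did not pass the test (adjusted p = 0.752).

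Atf3, an immediate stress-induced repressor of the same family, rose the most among the transcription factors. The Cre sham arrays lay at -0.27, -0.67, -0.97 and -0.15 and the Cre TAC arrays at 1.07, 1.14 and 0.99. The KO sham arrays lay at -0.79, 0.88, 0.25 and -0.98, and the KO TAC arrays at 3.82, 2.76, 2.22 and 1.45. Every TAC array was above every sham array, and every KO TAC array above every Cre TAC array. The mean rise was 2.15 ± 0.35 (SE), or 4.45-fold (adjusted p = 0.000659). It was 2.72 ± 0.48 in KO (6.60-fold, adjusted p = 0.00152) and 1.59 ± 0.52 in Cre (3.00-fold, adjusted p = 0.0979). Without KO TAC replicate 4 the Cre difference, whose arrays were the same, passed the test at an adjusted p of 0.0370, because all arrays share 1 estimate of the spread.

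Ddit3 encodes CHOP, the factor that links the response to cell death. It lay between 0.58 and 0.69 in Cre sham and at 0.08, -0.10 and 0.17 in Cre TAC, and these groups did not overlap. In KO sham it lay between 0.41 and 0.62, and in KO TAC at 0.23, 0.19, 0.04 and 0.83. The highest of these, KO TAC replicate 4, was the highest of all 15 arrays, and the other 3 were below every sham array. The mean difference was -0.38 ± 0.12 (SE, adjusted p = 0.0334), and without that array -0.47 (adjusted p = 0.000626). In KO alone the difference was -0.17 (adjusted p = 0.501) with the array and -0.34 (adjusted p = 0.0336) without it.

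Trib3, a pseudokinase that ATF4 and CHOP raise and that in turn restrains them, had values of 0.15, -0.33, -0.15 and 0.23 in Cre sham and -0.32, -0.20 and -0.35 in Cre TAC. The KO sham arrays gave 0.24, 0.67, 0.35 and -0.00, and the KO TAC arrays -0.81, 0.03, -0.18 and -0.35. The groups overlapped in both genotypes. Trib3 was lower by -0.45 ± 0.15 (SE, adjusted p = 0.0403) in the mean of both. TAC was below sham on each slide that held both groups of a genotype. A second, dimmer Trib3 probe had group means of -2.53 and -2.42 in Cre sham and Cre TAC and -2.49 and -2.73 in KO sham and KO TAC, so the probes disagreed in sign in Cre.

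**Figure D2:**
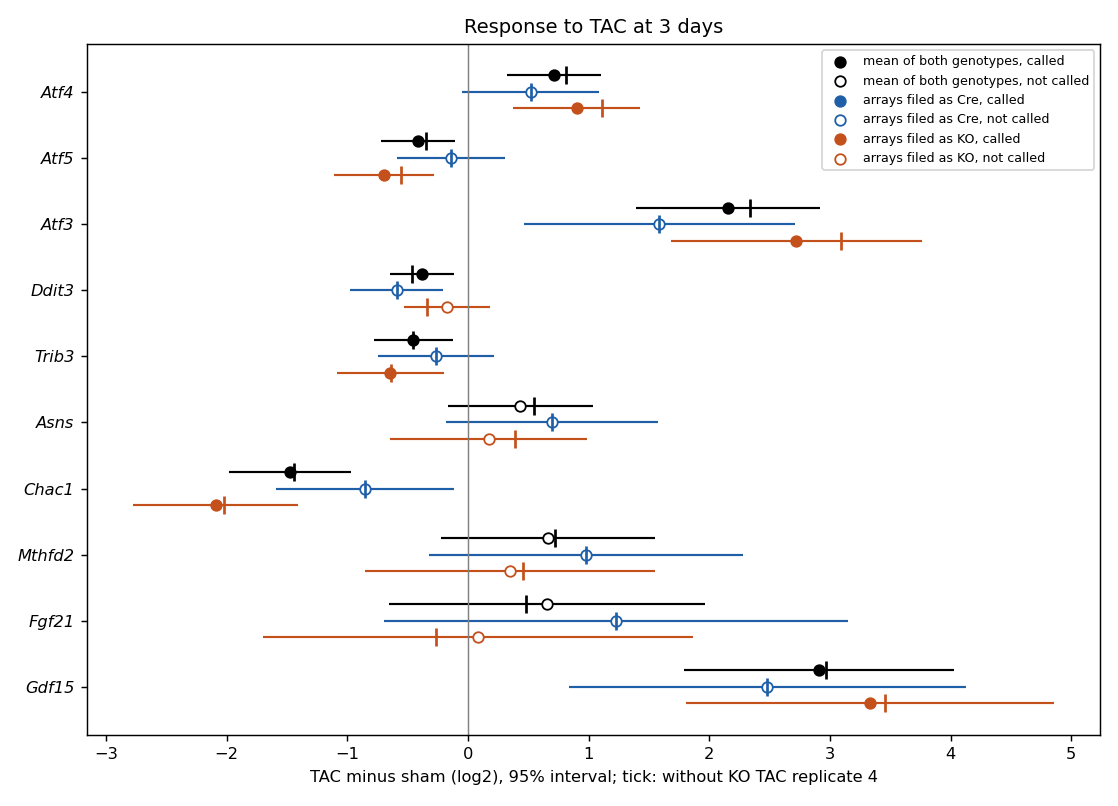
TAC minus sham for each gene on the log2 scale (x axis) with its 95% interval, for the mean of both genotypes and for the arrays filed as Cre and as KO. Filled points passed the test, and the tick marks the difference without KO TAC replicate 4. Gdf15, Atf3 and Atf4 lie to the right of 0 in all comparisons and Chac1 to the left, while the values of Fgf21 for the mean and for Cre rest on Cre sham signals at background.

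Among the metabolic targets the direction was not shared. Chac1, a glutathione-degrading enzyme that ATF4 raises, lay at 0.63, 0.76, 1.56 and 1.68 in Cre sham and 0.44, 0.35 and 0.12 in Cre TAC. It lay at 1.47, 1.99, 2.61 and 1.80 in KO sham and -0.71, 0.27, 0.29 and -0.33 in KO TAC. Every TAC array was below every sham array. The mean difference was -1.47 ± 0.23 (SE), a 2.78-fold fall (adjusted p = 0.000514). It was -2.09 in KO (4.26-fold, adjusted p = 0.000628) and -0.86 in Cre (1.81-fold, adjusted p = 0.187), and on no slide was TAC above sham. The KO response exceeded the Cre response by -1.24 (95% interval -2.24 to -0.23), with an unadjusted p of 0.0200 and an adjusted p of 0.511 from limma.

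Asns, which makes asparagine and is a standard ATF4 target, was measured at 0.41, -0.35, -0.43 and 0.61 in Cre sham and 0.16, 1.31 and 0.80 in Cre TAC. In KO sham it was at 1.77, 1.91, 1.61 and 0.71 and in KO TAC at 1.47, 2.40, 1.81 and 1.00. The KO sham arrays were all above the Cre sham arrays, and TAC and sham overlapped in both genotypes. The mean TAC difference of 0.43 had a 95% interval of -0.16 to 1.03 (adjusted p = 0.297).

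Mthfd2, the mitochondrial one-carbon enzyme that rises with mitochondrial stress, lay at -2.33, -2.81, -3.18 and -3.20 in Cre sham and -2.50, -1.28 and -1.91 in Cre TAC. The KO sham arrays were spread over -3.44, -0.20, -0.62 and -1.89, and the KO TAC arrays over -1.13, -1.16, -0.94 and -1.51. KO sham thus held both the lowest and the highest of all 15 arrays. The mean TAC difference was 0.66 (95% interval -0.22 to 1.55, adjusted p = 0.277). Its sign in KO was positive at 0.35 on the scale used here and -0.018 where arrays were centred on their median, neither passing the test.

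Gdf15, a secreted factor of the TGF-β superfamily that acts on appetite through the brainstem, showed the widest range. It lay at -0.50, -0.67, -1.90 and -0.08 in Cre sham and 1.82, 2.53 and 0.74 in Cre TAC. KO sham arrays lay at -0.09, 3.22, 1.21 and -0.30 and KO TAC arrays at 3.58, 4.78, 5.03 and 3.99. TAC and sham did not overlap within either genotype, and KO sham replicate 2 was above all Cre TAC arrays. The mean rise was 2.91 ± 0.52 (SE), or 7.51-fold (adjusted p = 0.00117). It was 3.34 in KO (10.1-fold, adjusted p = 0.00443) and 2.48 in Cre (5.59-fold, adjusted p = 0.0781), where leaving out KO sham replicate 2 brought it past the test with an adjusted p of 0.0237. The difference of the responses was 0.85 ± 1.04 (SE, adjusted p = 0.917).

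Fgf21, a hormone made mainly by liver, was dim. Its signal was not well above background on any of 4 Cre sham arrays, and was so on 3 of 3 Cre TAC, 3 of 4 KO sham and 3 of 4 KO TAC arrays. The Cre sham values were -7.45, -7.52, -6.94 and -5.79 and the Cre TAC values -5.35, -5.76 and -6.00. KO sham lay at -5.88, -2.78, -3.96 and -5.58, and KO TAC at -7.04, -3.81, -3.60 and -3.42. Against the lowest signal well above background on the Cre sham arrays, Cre TAC was at least 1.62-fold higher. By measured means KO sham was 3.60-fold higher and KO TAC 3.81-fold. Each of these KO means includes 1 array that was not well above background, so neither fold is a strict lower bound. These folds rest on few arrays and moved both ways as 1 array was left out. That of KO TAC ran from 2.99-fold without KO TAC replicate 4 to 6.91-fold without KO TAC replicate 1. That of KO sham ran from 2.39-fold without KO sham replicate 2 to 4.90-fold without KO sham replicate 1. The bound of Cre TAC ran from 1.43-fold without Cre TAC replicate 1 to 1.93-fold without Cre sham replicate 4. The Cre groups overlapped slightly in range and the KO groups widely. The mean TAC difference, fitted on background signals in Cre sham, did not pass the test (adjusted p = 0.500). The liver markers Alb, Apoa1 and Ttr were not well above background on 14 arrays and were so on KO TAC replicate 4, the array with 95.9% of probes well above background. A second, dimmer Fgf21 probe had group means of -8.11 and -6.83 in Cre sham and Cre TAC and -4.57 and -4.52 in KO sham and KO TAC, the same order. It was well above background on 0 of 4 Cre sham, 1 of 3 Cre TAC, 3 of 4 KO sham and 3 of 4 KO TAC arrays.

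Within each genotype fewer calls were made. In the Cre arrays 0 of the 10 genes passed the test by limma, against 5.94% of all features called, 4.30% higher and 1.64% lower. An unadjusted p under 0.05 was reached by 4 of the 10 and by 18.5% of all features. Without KO TAC replicate 4 the count was 2 (Atf3 higher and Ddit3 lower), against 13.5%, and with slide as a block it was 1 (Atf3, 1.82 with an adjusted p of 0.0307), against 7.82%. In the KO arrays 6 passed, Atf3, Atf4 and Gdf15 higher and Chac1, Atf5 and Trib3 lower, against 23.2% of all features, 10.6% higher and 12.6% lower. With KO TAC replicate 4 left out Ddit3 made 7, against 31.4% of all features. The calls of Atf3, Chac1 and Gdf15 in KO held without any 1 array, that of Atf4 ended without KO sham replicate 1 or KO TAC replicate 3, that of Atf5 without KO sham replicate 2 or 3, and that of Trib3 without any of 9 arrays.

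The responses of the genotypes were not shown to differ. The difference of the TAC responses passed the test for 0 of 10 genes by limma, against 0.0116% of all features. An unadjusted p under 0.05 was reached by 1 of the 10, Chac1, and by 7.17% of all features. The intervals were wide: that of Atf3 ran from -0.39 to 2.67 and that of Atf4 from -0.40 to 1.16.

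After TAC, Gdf15 and Atf3 were higher in every KO array than in any Cre array, by 2.65 ± 0.76 (SE, adjusted p = 0.0802) and 1.50 ± 0.52 (adjusted p = 0.144). None of the 10 genes passed the test, while 3.05% of all features were called. An unadjusted p under 0.05 was reached by 3 (these and Asns) and by 17.5% of all features. Leaving out KO TAC replicate 4, which called 8.83% of all features, brought Atf3 past the test, with a difference of 1.87 and an adjusted p of 0.0338. With arrays centred on their median as well, which called 9.95%, Atf3, Atf4 and Gdf15 passed it, with adjusted p-values of 0.0239, 0.0467 and 0.0463. Leaving out KO sham replicate 2 brought Gdf15 past it (adjusted p = 0.0317). With slide as a block on all arrays, the differences were 2.47 for Gdf15 and 1.26 for Atf3, with adjusted p-values of 0.115 and 0.118.

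After the sham operation none of the 10 genes passed the test by limma, and 0.0155% of all features did. Of the 9 genes other than Fgf21, 4 had an unadjusted p under 0.05, as had 4.68% of all features, and each was higher in KO: Gdf15 by 1.80, Asns by 1.44, Mthfd2 by 1.34 and Chac1 by 0.81 (adjusted p-values from 0.579 to 0.966). Fgf21 had the fold given above, against Cre sham arrays at background. Asns was the 1 of the 10 genes whose sham groups did not overlap, which is a description without the share of all features. The load marker Nppa moved the same way, with 7.39 to 8.49 in KO sham against 5.54 to 6.80 in Cre sham, and its part in these differences was not tested.

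Among the sham hearts KO sham replicate 2 was often the highest. It gave the highest of the 8 sham values for 7 of 10 genes (Atf3, Atf4, Trib3, Asns, Mthfd2, Fgf21 and Gdf15), while it was the highest for 13.2% of all features. The same array was the lowest for 0 of the 10 genes and for 22.8% of all features, the largest such share among the sham arrays. KO sham replicate 3 was the highest for Atf5 and Chac1, and Cre sham replicate 1 for Ddit3. The genes are targets of shared factors, so they are not independent counts of how that heart differed.

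**Figure D3:**
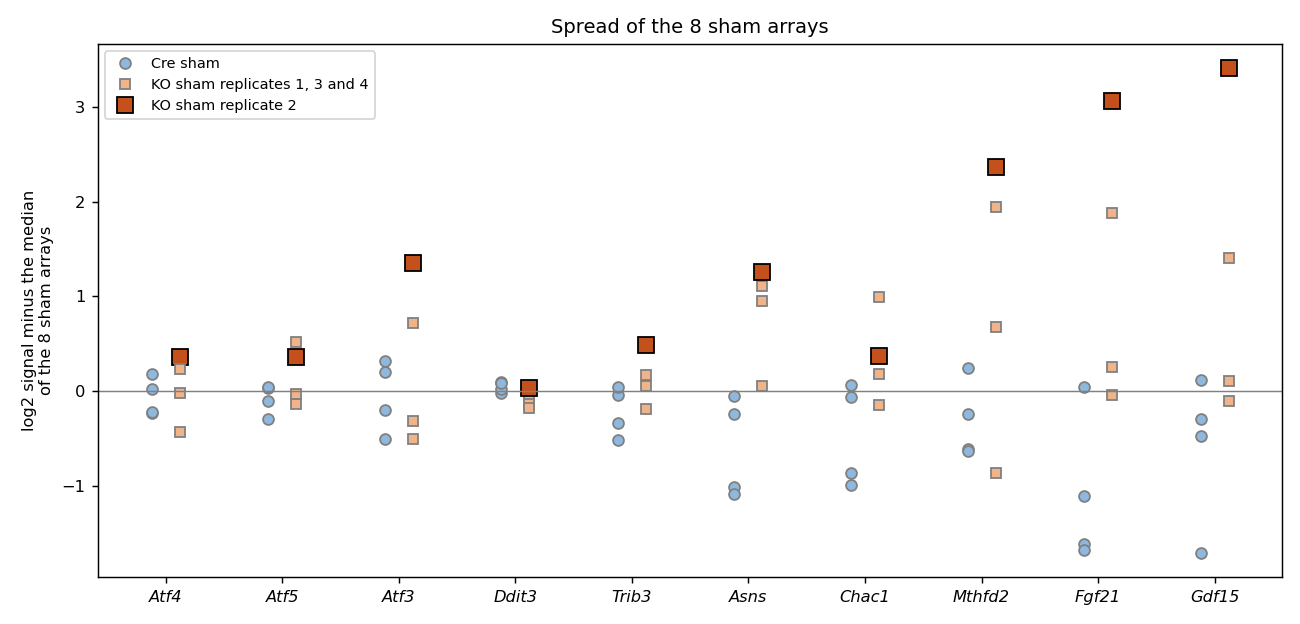
Signal of each sham array minus the median of the 8 sham arrays (y axis, log2) for each of the 10 genes. Circles are Cre sham and squares KO sham, with KO sham replicate 2 drawn large; it is the highest array for 7 of the 10 genes.

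Other genes of the pathway were read from lists. Of 8 amino acid transporters that ATF4 can raise and that were measured in each group, 4 rose in the mean of both genotypes and 0 fell, against the 13.3% and 13.7% of all features given above, with a median of 0.60. Slc7a5 and Slc3a2, the subunits of the large neutral amino acid transporter, rose by 1.49 ± 0.21 (SE) and 0.81 ± 0.18, and Slc38a2 and Slc1a4, carriers of small neutral amino acids, by 1.21 ± 0.16 and 1.47 ± 0.24. Their adjusted p-values were 0.000235, 0.00510, 0.000175 and 0.000632. Slc7a5 lay between -3.36 and -2.89 in Cre sham, -2.35 and -1.28 in Cre TAC, -2.92 and -1.46 in KO sham and -0.63 and -0.32 in KO TAC, so the groups did not overlap within a genotype. Slc7a11, the cystine importer, was left out of these counts, since it was not well above background on any Cre sham, Cre TAC or KO sham array. KO TAC, where 3 of 4 arrays measured it, was 2.10-fold higher by its measured mean than the bound for KO sham. That mean includes an array not well above background, so the fold is not a strict lower bound. Cre gave no fold. With arrays centred on their median and KO TAC replicate 4 kept, 2 of the 8 transporters were called, and 1 of the enzymes described next, and the transporters' median was 0.40. That setting called 12.4% of all features. With normexp and quantile normalization 4 transporters were called higher, with a median of 0.44, where 3096 of the 25787 features were higher.

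Of 10 measured enzymes of serine, one-carbon and proline synthesis, 4 rose and 0 fell, with a median of 0.22. Without KO TAC replicate 4, 5 rose and 0 fell, with a median of 0.31, where 4654 of the 25787 features rose and 5163 fell. Psat1 and Phgdh, which make serine from a glycolytic intermediate, rose by 1.82 ± 0.26 (SE, adjusted p = 0.000285) and 1.26 ± 0.24 (adjusted p = 0.00175). Mthfd1l, the mitochondrial formate-producing enzyme, rose by 1.45 ± 0.37 (adjusted p = 0.0114), and Aldh18a1, of proline synthesis, by 0.58 ± 0.14 (adjusted p = 0.00801). Psat1 lay between -2.21 and -1.41 in Cre sham, -0.81 and 0.65 in Cre TAC, -1.11 and -0.06 in KO sham and 0.58 and 1.74 in KO TAC, and within a genotype the groups did not overlap. Of 12 cytosolic aminoacyl-tRNA synthetases, which charge tRNAs and are ATF4 targets, 0 were called by limma on all arrays, with a median of 0.20, and Gars (0.37, adjusted p = 0.262) and Aars (0.37, adjusted p = 0.127) had the largest differences. Under other settings some passed the test, each higher. There were 2 with quantile normalization, where 2969 of the 25787 features were higher, and 3 with normexp and quantile normalization, where 3096 were. With slide as a block there were 3, and the number of all features is not given here. Without KO TAC replicate 4 there were 4 (Aars, Tars, Sars and Yars), with a median of 0.33, where 4654 features were higher. Tars, Sars and Yars were named after their values were seen.

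Upstream of ATF4, 8 genes of eIF2α phosphorylation and dephosphorylation were measured, of which 2 rose. Without KO TAC replicate 4, 3 rose and 0 fell, where 4654 of the 25787 features rose and 5163 fell. Ppp1r15a, the stress-induced subunit of the phosphatase that ends the response, rose by 1.31 ± 0.17 (SE, adjusted p = 0.000168), and Dnajc3, an inhibitor of the kinases, by 0.50 ± 0.13 (adjusted p = 0.0110). The kinases themselves (Eif2ak1, Eif2ak2, Eif2ak3 and Eif2ak4) had differences between -0.18 and 0.20 and did not pass the test. Ppp1r15a lay between -1.36 and -0.61 on all sham arrays, between -0.72 and 0.15 in Cre TAC and between 0.32 and 1.15 in KO TAC.

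Of 17 other ATF4 and CHOP targets, 5 rose and 5 fell, with a median of -0.19. Those that rose were Ddit4, an inhibitor of mTORC1 (1.40, adjusted p = 0.0289), Eif4ebp1, a brake on cap-dependent translation (0.84, adjusted p = 0.00221), the death receptor Tnfrsf10b (0.82, adjusted p = 0.0122), the stress-induced chromatin factor Nupr1 (0.74, adjusted p = 0.00577) and Ero1a, an oxidase of the endoplasmic reticulum (0.72, adjusted p = 0.0172). Cth, which makes cysteine, fell by 2.17 ± 0.37 (SE, adjusted p = 0.000924) and Gpt2, the mitochondrial alanine aminotransferase, by 1.66 ± 0.18 (adjusted p = 5.57e-05). Bcl2l11, a pro-death BCL2 relative that CHOP raises, fell by 1.30 (adjusted p = 0.00237), the lipoprotein receptor Vldlr by 0.96 (adjusted p = 0.000779) and Herpud1, of endoplasmic reticulum protein degradation, by 0.95 (adjusted p = 0.00233). Gpt2 lay between 1.50 and 2.31 on all sham arrays, 0.41 and 1.31 in Cre TAC and -0.89 and 0.02 in KO TAC, and no TAC array reached the sham range. The call of Ddit4 ended with 9 of the 15 arrays left out 1 at a time, and that of Ero1a with 1. With arrays centred on their median and KO TAC replicate 4 kept, 0 of these 17 were called higher and 5 lower, against 1318 and 1872 of the 25787 features. Eif4ebp1, Tnfrsf10b, Nupr1 and Ero1a were named after their values were seen.

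Mitochondrial chaperones and proteases are the classical targets of the mitochondrial unfolded protein response. Of 9 measured, 0 were called higher and 3 lower: Dnaja3 at -0.53, Clpp at -0.51 and Hspe1 at -0.50, with adjusted p-values of 0.0322, 0.0243 and 0.0410, and a list median of -0.46. Without KO TAC replicate 4, 5 were lower, with a median of -0.37, where 5163 of the 25787 features were lower. With arrays centred on their median and that array kept, 0 were lower, where 1872 features were. The calls of Dnaja3 and Hspe1 ended with 8 and 9 of the 15 arrays left out in turn, and that of Clpp with 2. Of the receptors, Fgfr1 rose by 0.64 ± 0.14 (SE, adjusted p = 0.00389), while Klb, the co-receptor through which FGF21 acts, differed by 0.16 ± 0.34 (adjusted p = 0.793). Klb was dim, well above background on 4 of 4 Cre sham, 3 of 3 Cre TAC, 3 of 4 KO sham and 1 of 4 KO TAC arrays. Ret, which pairs with the GDF15 receptor, did not pass the filter on dim probes, and Gfral was not analysed here.

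**Figure D4:**
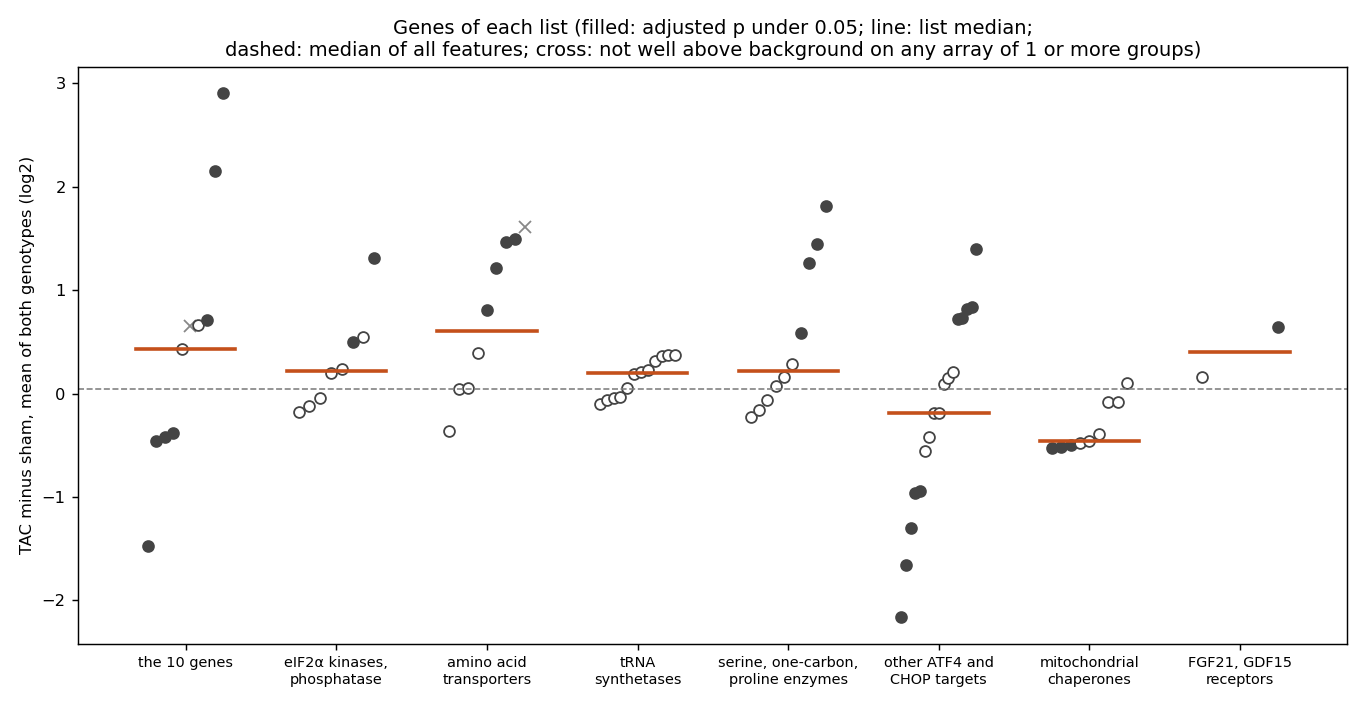
TAC minus sham in the mean of both genotypes (y axis, log2) for every measured gene of each list, filled where the adjusted p was under 0.05, with the list median as a line and the median of all features, 0.044, dashed. Crosses are Fgf21 and Slc7a11, which were not well above background on any array of 1 or more groups and are left out of the medians. Amino acid transporters and enzymes of serine, one-carbon and proline synthesis hold called genes above 0 only, mitochondrial chaperones and proteases below 0 only, and the 10 genes and the other ATF4 and CHOP targets on both sides.

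Levels of cell type markers moved with TAC too. Whether cell numbers or levels per cell changed was not tested, nor was the part of either in the differences above. All 8 cardiomyocyte markers were well above background on all arrays, with 1 lower after TAC (Pln, by -1.05) and summed levels of 1159 to 1611 on sham arrays and 681 to 1523 on TAC arrays, in multiples of the array's 75th percentile. Of 6 neutrophil markers measured in each group 4 rose (Mmp8 was not well above background on any Cre sham array), and the summed levels of all 7 were 0.439 to 1.65 in Cre sham, 9.02 to 10.9 in Cre TAC, 0.321 to 13.5 in KO sham and 9.89 to 50.4 in KO TAC. Of macrophage markers 3 of 9 rose, with sums of 13.4 to 35.3 on sham and 23.0 to 43.4 on TAC arrays. Of fibroblast markers 4 of 7 rose, with sums of 134 to 297 on sham and 230 to 434 on TAC arrays. Of endothelial markers 4 of 6 fell, with sums of 29.0 to 39.5 on sham and 12.6 to 36.4 on TAC arrays. Of 5 lymphocyte markers 1 fell, of 5 smooth muscle markers 2 rose and 1 fell, and of 5 skeletal muscle markers 2 rose (Tnnt3 and Acta1, which hearts under load also express). Without KO TAC replicate 4, 2 cardiomyocyte and 2 lymphocyte markers fell, and 2 smooth muscle markers rose and 2 fell. Of macrophage markers 4 of 9 then rose, and of the 6 neutrophil markers 5. In that setting 4654 of the 25787 features rose and 5163 fell. No measured marker of cardiomyocytes, macrophages, fibroblasts or endothelium was at background on any array, whereas the neutrophil gene Camp was well above it on 6 of 15.

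The named features most like 3 of the genes over the 14 arrays without KO TAC replicate 4 were sought as a description. Probes without a gene name and provisional gene symbols were left out of the search. These arrays share groups and slides. The largest Pearson correlations with Atf4 were those of Rps6 and Ywhaz (0.978 each) and Spty2d1 (0.973). With Gdf15 they were those of Enox1 (0.978), Akip1 (0.973) and Serinc2 (0.973). With Fgf21, a dim probe, they were those of Abcb11 (0.970), Oog1 (0.950) and Smc1b (0.927).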

How the data were processed

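Amplified Cy3-labelled RNA was put on 1-colour Agilent arrays, per the labels' protocols. Spot intensities in the deposited files came from Feature Extraction 10.7.3.1 after subtraction of background, per the headers of the deposited files. A table of the authors' deposited log2 values served as an alternative only, and its background treatment is not given here; the submitters' processing notes name limma. The genes and lists were chosen with earlier results of these data known, and all 10 genes are named in each comparison; from each list up to 6 called genes by size are named, or otherwise the 2 largest differences, and others are marked where they stand.

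Control spots were left out and spots of 1 probe averaged. Probes were named through RefSeq accessions (GRCm38.p6). From the log2 processed signal the array's 75th percentile was subtracted, for probes well above background on 3 or more of 15 arrays, a gene taking its brightest probe. limma 3.58.1 (R 4.3.3) fitted 4 groups on all arrays, with empirical Bayes tests and Benjamini-Hochberg adjustment over 25787 features; the fit was tested on simulated data. The p-values weigh each difference against the spread between these arrays. The main fit took the arrays as independent. The number of arrays limits the precision. Folds against a dim group used a bound for that group. It was the mean of, per array, the higher of the lowest signal well above background and its own signal. The other group's measured mean was set against it. Such a fold is a lower bound only where every array of the other group was well above background. Arrays of 1 slide deviated together (median correlation 0.28 over 21 pairs), so slide was tried as a block. Plots used matplotlib 3.10.9 under Python 3.11.15.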

Additional observations from a re-analysis of the deposited data

Results flagged for a closer look

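Among 30 sets of 4 arrays (10 genes in 3 groups), 1 value lay apart from the other 3 of its group. Fgf21 on KO TAC replicate 1 was at -7.04, not well above background, while the other KO TAC arrays lay between -3.81 and -3.42. Chance alone sets apart a value in about 5% of such sets.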

How the results depend on the processing

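Of the 10 genes, the number called after TAC in the mean of both genotypes was 7, against 27.0% of all features. It was 3 with median scaling, against 12.4%, and 0 with the operation of the description field, against 0 features. It was 4 with all probes kept, 4 with the replicate block, and 4 to 7 with 1 array left out. In Cre it was 0, against 5.94%, and 1 with slide as a block, against 7.82%. It was 3 with the slide block and KO TAC replicate 4 left out, and 0 to 2 with 1 array left out. With median scaling without KO TAC replicate 4 (added after seeing the data) it was 2, where 1787 features were higher and 1473 lower. With the authors' values, whose Cre label covers the matched arrays filed as KO, it was 7. In KO it was 6, against 23.2%. It was 3 with median scaling, where 769 features were higher and 1705 lower, and 0 with the operation of the description field, against 0 features. Between genotypes after TAC it was 0, against 3.05%. It was 1 with normexp and quantile normalization, where 576 features were higher and 841 lower. With median scaling without KO TAC replicate 4 it was 3, against 9.95%. It was 1 with the slide block and that array left out, 3 with the authors' values and 0 to 1 with 1 array left out. Counts without a share of all features beside them say nothing particular to these genes. Why the counts differed between settings was not tested. The replicate numbers did not pair the arrays (median correlation -0.061 over 21 pairs). Over all genes and alternatives, 267 called values kept their call, 71 lost it and 0 changed sign while called. Median scaling moved the median of all features from 0.044 to -0.16, and that of the KO comparison from 0.11 to -0.26. Dim signal limits Fgf21.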
